A study of Mus musculus with 6 samples.

Results

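The expression of 9 receptor genes that steer leukocytes between blood, lymph and tissue was followed over the immune cells of CT26 tumors. They are Ccr1, Ccr2, Ccr7, Ccr8, Ccr9, Ccrl2, Cx3cr1, Xcr1 and S1pr1. They were chosen by name, as receptors for CC, C and CX3C chemokines with 1 receptor for a lipid signal, and all 9 were found among the 20649 genes of the count matrix. Tumors had been grown from CT26, a mouse colon carcinoma line, under the skin of BALB/c mice. They received 3 intratumoral injections of exosomes loaded with an antisense oligonucleotide, and were taken 24 h after the last. In the exoASO-STAT6 group (3 tumors) the oligonucleotide targets Stat6, the transcription factor behind responses to IL-4, and in the exoASO-Scramble group (3 tumors) it carries a scrambled sequence. Every tumor therefore received loaded exosomes, and there was no group without injection among these samples. CD45-positive cells, that is leukocytes, were enriched by magnetic selection and profiled by droplet-based scRNA-seq from the 3′ end of transcripts. A count is a number of unique molecular identifiers (UMIs), and levels are UMIs per 1000000 UMIs (CPM). The matrix pools all tumors. Its 9235 barcodes end in 1 of 6 suffixes, 3 to 8, which no label ties to a tumor, so the suffixes are treated as 6 libraries of unknown treatment. The treatments could therefore not be compared, and no test between groups was made.

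Chemokine receptors are membrane-spanning proteins that signal through inhibitory G proteins and lead a cell up a gradient of its ligand. CCR2 brings monocytes out of the bone marrow and into inflamed tissue toward CCL2 and CCL7, CCR1 answers CCL3, CCL5 and related ligands, and CX3CR1 binds fractalkine and is known from resident macrophages and patrolling monocytes. XCR1 marks the dendritic cells that present antigen to CD8 T cells and binds XCL1 from lymphocytes, CCR7 takes mature dendritic cells and naive T cells to lymph nodes, and CCR9 is known from plasmacytoid dendritic cells (pDC) and from thymic and gut homing. CCR8 is known from regulatory and skin T cells. CCRL2 binds chemerin without signaling of its own, and S1PR1 senses sphingosine-1-phosphate and lets lymphocytes leave tissues for blood and lymph.

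In the mouse genome (GRCm38, the build named mm10 in the submitters' notes), 7 of the 9 genes lie on chromosome 9. Ccr9, Xcr1, Ccr1 and Ccr2 stand in a block of 342 kb with 8 protein-coding genes, which also holds Fyco1, Cxcr6, Ccr1l1 and Ccr3. Ccr9 lies at chr9:123767211-123783457 on the plus strand and Xcr1 at chr9:123852315-123862029 on the minus strand, 68.9 kb further on. Ccr1 lies at chr9:123962126-123968692 (minus) and Ccr2 at chr9:124101918-124109140 (plus). Cx3cr1 (chr9:120048683-120068296, minus) and Ccr8 (chr9:120092133-120094906, plus) are also neighbors, with 23.8 kb between them. Ccrl2 lies apart on the same chromosome at chr9:111054834-111057518 (minus). Ccr7 (chr11:99144199-99155077) and S1pr1 (chr3:115710433-115715055) are on other chromosomes, both on the minus strand.

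Windows of 250 bases before to 50 after a transcription start were taken from RefSeq (GRCm38.p6) for the 7 genes on chromosome 9, of which Ccrl2 has 3 windows. Those of 4 genes are shown, because Ccr9 and Xcr1 lie in the same block and were led by different dendritic gates and Ccr2 and Cx3cr1 moved in opposite directions among monocytes and macrophages, as described below. They span chr9:123766961-123767260 (Ccr9), chr9:123861980-123862279 (Xcr1), chr9:124101933-124102232 (Ccr2) and chr9:120068247-120068546 (Cx3cr1), each written along its gene's strand. Capitals mark the letters CAGGTG, the E-box form bound by E2-2 (Tcf4), a factor of pDC.
Ccr9: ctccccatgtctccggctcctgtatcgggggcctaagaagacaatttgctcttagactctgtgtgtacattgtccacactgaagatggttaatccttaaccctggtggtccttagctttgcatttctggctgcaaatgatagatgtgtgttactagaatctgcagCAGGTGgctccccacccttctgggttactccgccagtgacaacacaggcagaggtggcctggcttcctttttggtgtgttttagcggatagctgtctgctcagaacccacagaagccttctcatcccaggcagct
Xcr1: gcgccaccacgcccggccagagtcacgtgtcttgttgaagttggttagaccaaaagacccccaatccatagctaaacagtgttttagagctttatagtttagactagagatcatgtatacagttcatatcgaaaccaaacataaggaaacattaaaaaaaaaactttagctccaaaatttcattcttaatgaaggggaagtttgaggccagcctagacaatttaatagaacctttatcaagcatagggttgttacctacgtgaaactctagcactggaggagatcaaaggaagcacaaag
Ccr2: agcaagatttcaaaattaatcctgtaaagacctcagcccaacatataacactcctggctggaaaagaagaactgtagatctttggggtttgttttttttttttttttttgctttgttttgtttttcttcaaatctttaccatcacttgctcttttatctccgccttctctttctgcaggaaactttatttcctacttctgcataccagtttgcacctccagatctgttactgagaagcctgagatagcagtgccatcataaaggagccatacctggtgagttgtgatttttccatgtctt
Cx3cr1: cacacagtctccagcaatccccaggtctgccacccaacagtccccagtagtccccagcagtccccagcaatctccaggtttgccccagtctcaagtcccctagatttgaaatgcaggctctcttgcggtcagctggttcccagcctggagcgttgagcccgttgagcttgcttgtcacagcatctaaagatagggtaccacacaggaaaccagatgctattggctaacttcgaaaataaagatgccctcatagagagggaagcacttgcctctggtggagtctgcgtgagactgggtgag
The motifs searched, 3 in all, were read on both strands: CAGGTG (reverse CACCTG), the PU.1 core AGGAAGT (reverse ACTTCCT) and the paired interferon half-sites, GAAA, NN and GAAA in a row (reverse TTTC, NN and TTTC), where N is any base. The letters CAGGTG were found in the Ccr9 window, 85 bases before the start, and on the other strand in 1 of the 3 Ccrl2 windows, 99 bases before it. No other window of these genes held any of the motifs. Among all 32851 promoter windows, 20.2% held CAGGTG, 9.35% held AGGAAGT and 3.44% held the paired half-sites.

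Barcodes were sorted into 11 gates by UMIs of genes that are not among the 9. Early monocytes had at least 2 UMIs of Vcan or of Hp with 1 of Csf1r, and Ly6c2 monocytes at least 2 of Ly6c2 with 1 of Csf1r. C1q-high barcodes had at least 60 UMIs of C1qa, C1qb and C1qc per 10000, a mark of mature macrophages. The neutrophil gate asked for 5 UMIs of S100a9, the type 1 dendritic gate for 2 of Clec9a, the mature dendritic gate for Fscn1 and Ccl22, the pDC gate for 2 of Siglech and the B gate for 2 of Cd79a. Foxp3 T, CD8 T and NK barcodes could hold at most 1 UMI of the macrophage genes Csf1r and Adgre1. A gate was passed by 6688 barcodes (72.4%), and 2404 of these (35.9%) passed more than 1.

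These overlaps bear on every value below. Of the barcodes in the neutrophil gate, 91.4% held more than 1 UMI of Csf1r and Adgre1. Without genes used for gating, which the gates themselves raise or lower, the monocyte/macrophage markers summed to 6579 CPM in this gate and 7235 CPM in early monocytes. The neutrophil markers without S100a9 summed to 2081 CPM here against at most 884 CPM in any other gate. Among them G0s2 was 548 CPM, Csf3r 112 CPM and Cxcr2 48.4 CPM, against at most 181, 78.6 and 19.5 CPM elsewhere. As it held the markers of both cell types, the gate is called the S100a9 gate here. More than 1 UMI of Csf1r and Adgre1 was also held by 67.3% of type 1 dendritic, 66.9% of pDC, 52.4% of B and 48.8% of mature dendritic barcodes. Each level is accordingly given for all barcodes of a gate and, where it matters, for barcodes that pass that gate alone. The part of mixed droplets in these values was not tested. Ptprc, the gene of CD45, had a UMI in 91.8% of barcodes, and the tumor cell genes Epcam, Krt8 and Krt18 summed to at most 30.4 CPM in any gate. Again without gating genes, the NK markers summed to 10082 CPM in NK barcodes and to at most 762 CPM elsewhere. The T cell markers summed to 1413 CPM in Foxp3 T and 2025 CPM in CD8 T barcodes and to at most 252 CPM elsewhere. The type 1 dendritic markers, also without the receptors studied here, did not single out their gate by their sum. They summed to 1482 CPM there, against 1867 CPM in NK, 1604 CPM in pDC and 1479 CPM in mature dendritic barcodes. Irf8 made up most of each sum, with 1347 CPM in type 1 and 1859 CPM in NK barcodes. Flt3 and Batf3 were 73.5 and 61.4 CPM in type 1 barcodes against 2.66 and 5.32 CPM in NK barcodes. In mature dendritic barcodes both were higher still, at 84.8 and 126 CPM. Mature dendritic markers led in their own gate at 3840 CPM, with NK next at 2540 CPM. Of these sums, Ccl5 gave 3660 and 2537 CPM, and Il4i1 179.8 and 3.66 CPM. The pDC markers led in theirs at 3041 CPM, with NK next at 2007 CPM. Of these sums, Irf8 gave 1534 and 1859 CPM, and Tcf4 874 and 82.8 CPM. Monocyte/macrophage markers summed to 4499 CPM in type 1, 4506 CPM in mature dendritic and 5469 CPM in pDC barcodes. The libraries held 867 to 2017 barcodes and 11492757 to 33902084 UMIs, and 16 barcode sequences occurred in 2 libraries each.

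**Figure D1:**
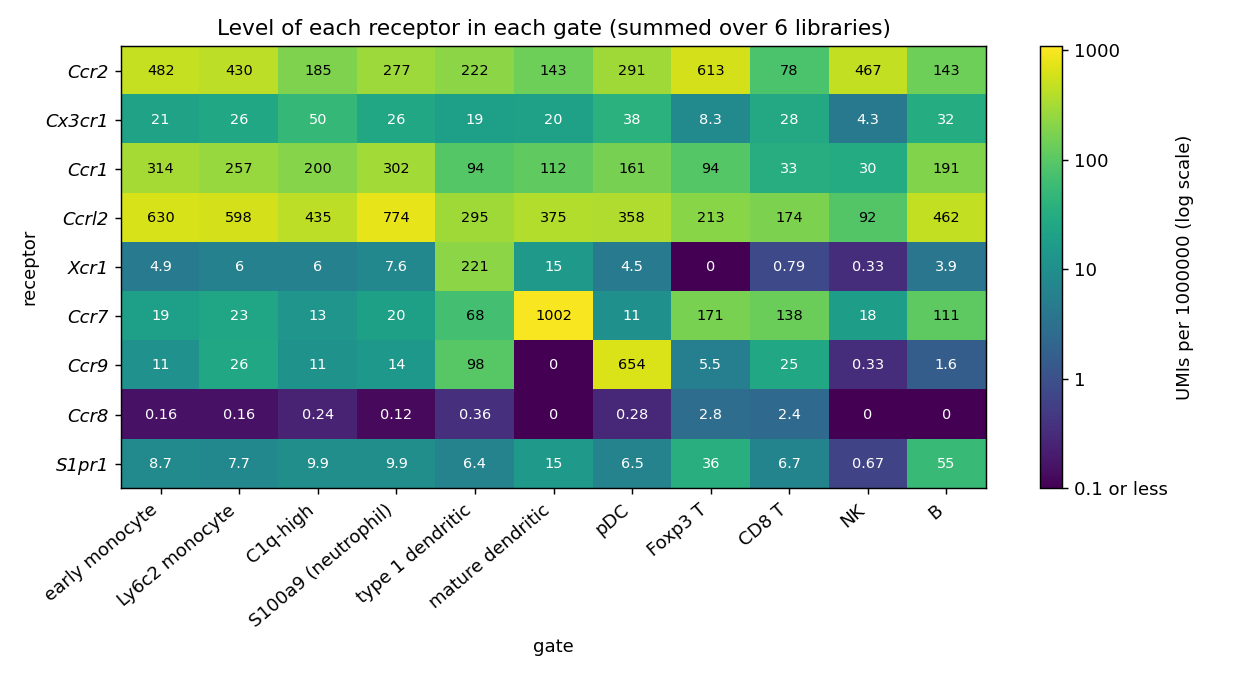
Level of each of the 9 receptors (rows) in each of the 11 gates (columns), in UMIs per 1000000 summed over 6 libraries; color is on a log scale and the number is printed in each cell. Xcr1, Ccr7 and Ccr9 each had a single high gate (221, 1002 and 654). Ccr2 was at least 77.5 and Ccrl2 at least 91.8 in every gate, and Ccr1 was low in NK (30.3) and CD8 T (33.2) barcodes. Many barcodes count in more than 1 column.

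Ccr2, the receptor of inflammatory monocytes, was found in every gate. Its level was 482 CPM (95% exact Poisson interval 475 to 490.0, counting error only) in early monocytes and 429.8 CPM (425 to 435) in Ly6c2 monocytes. It was 185 CPM (182 to 188) in C1q-high barcodes. The 2 monocyte gates shared 1179 barcodes, and their order for Ccr2 is not settled. Without the shared barcodes, Ly6c2 monocytes held 364 CPM and early monocytes 357 CPM, with Ly6c2 monocytes higher in 6 of 6 libraries. Barcodes of 1 gate alone gave 469 CPM for Ly6c2 and 536 CPM for early monocytes. In early monocytes, suffixes 3 to 8 gave 494, 331, 808, 498, 447 and 475 CPM. In C1q-high barcodes they gave 185, 177, 347, 210.3, 129.7 and 176 CPM. Each library was lower in the C1q-high gate than in the early monocyte gate, but the ranges met, because suffix 5 stood above the others in both. At 1000 UMIs per barcode, Ccr2 was seen in 40.2% of early monocytes (37.9 to 42.6, exact binomial interval) and 15.7% of C1q-high barcodes (14.4 to 17.1). In the B gate, taken as a type that should lack Ccr2, the share was 9.76% (4.31 to 18.3). The median depths were 14077, 18676 and 11094 UMIs, and before thinning the shares were 89.6%, 56.6% and 34.1%. The C1q-high share lies within the interval of the B share.

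Foxp3 T barcodes, the gate of regulatory T cells, had a Ccr2 level at least as high as that of the monocyte gates. It reached 613 CPM (535 to 699) there over 55 barcodes, of which 43 held a Ccr2 UMI, and no barcode held more than 18 of its 222 UMIs. The 3 libraries with at least 10 such barcodes, suffixes 4, 5 and 6, gave 569, 903 and 836 CPM. In all 3 the Foxp3 T level was above that of early monocytes, by 1.27 times over all libraries, although the library ranges overlapped. Macrophage markers that no gate used summed to 834 CPM in this gate against 7235 CPM in early monocytes. Among barcodes that passed no other gate, Ccr2 was 578 CPM (501 to 662) in 54 Foxp3 T barcodes and 536 CPM (512 to 559.5) in early monocytes, so that the intervals overlapped. After thinning, 57.7% of Foxp3 T barcodes (43.2 to 71.3) held Ccr2.

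NK cells followed at 467 CPM (443 to 492), with library values from 358 to 639 CPM and a median of 503 CPM. Early monocytes and NK cells could not be ordered, as 3 of 6 libraries were higher in each. pDC held 291 CPM, the S100a9 gate 277 CPM and type 1 dendritic barcodes 222 CPM. The lowest level was that of CD8 T barcodes, 77.5 CPM (67.1 to 89.2), where the thinned share of 7.88% (4.57 to 12.5) lay within the interval of the B share and could not be told apart from background. The B gate is itself a mixed reference, since its Ccr2 level was 143 CPM over all its barcodes and 90.8 CPM (59.8 to 132) in those that passed no other gate.

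Cx3cr1, the fractalkine receptor, was ordered the other way between early monocytes and C1q-high barcodes. Its level was 49.6 CPM (47.8 to 51.3) in C1q-high barcodes, where 71.1% of all its UMIs were found, and 21.0 CPM (19.4 to 22.6) in early monocytes. The C1q-high gate also held 62140847 of the 140562949 UMIs of all genes and barcodes. Suffixes 3 to 8 gave 58.3, 52.4, 67.8, 34.1, 57.0 and 31.8 CPM in the C1q-high gate. In early monocytes they gave 26.1, 31.6, 36.7, 7.69, 28.6 and 15.8 CPM. Every library was higher in the C1q-high gate, and suffixes 6 and 8 were lowest in both gates. The 20.4 CPM of mature dendritic, 18.9 CPM of type 1 dendritic and 37.6 CPM of pDC barcodes came mostly from barcodes that also passed other gates. In barcodes of 1 gate alone they were 5.30 CPM (1.09 to 15.5), 5.95 CPM (1.93 to 13.9) and 2.64 CPM (0.0668 to 14.7), against 14.6 CPM (55 UMIs) in early monocytes. The gene was sparse, with a UMI in 4.31% of C1q-high barcodes (3.61 to 5.10) and 25 of 1671 early monocytes (0.970 to 2.20%) at 1000 UMIs, and in 2.44% of B barcodes (0.297 to 8.53), within whose interval both shares lie. Before thinning the shares were 29.6%, 15.1% and 15.9%.

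Barcodes that passed both gates were left out when the C1q-high gate (2739 barcodes) was set against early monocytes (1378 barcodes). A gene was called when the difference was at least 2-fold and went the same way in all 6 libraries. Ccr2 was 3.26-fold lower (175 against 572 CPM), a call made for 2.91% of the 13652 genes, and Cx3cr1 was 3.99-fold higher (50.6 against 12.7 CPM), a call made for 3.68%. Ccr1 (1.76-fold), Ccrl2 (1.60-fold) and Ccr7 (1.68-fold) were also lower in 6 of 6 libraries but did not reach 2-fold. The median log2 difference was -0.41 over the 8 members with enough UMIs and 0.06 over all genes.

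The same shift was followed in finer steps over 3680 monocyte/macrophage barcodes that lay outside the S100a9, dendritic, pDC and B gates. They were split into 5 bins by UMIs of the C1q genes per 10000, with 1101, 225, 567, 1068 and 719 barcodes. The bins from 60 upward held fewer barcodes than the C1q-high gate has outside those gates. The choice of monocyte/macrophage barcodes therefore had a further limit, which is not given here. From the lowest to the highest bin, Ccr2 was 654, 485, 358, 202 and 144 CPM, so that the lowest bin lay above the 613 CPM of Foxp3 T barcodes. The highest bin was below the lowest in 6 of 6 libraries, by 4.55-fold over all and by 2.66- to 6.78-fold in single libraries, and in 3 libraries each bin was below the one before. The share of barcodes with Ccr2 at 1000 UMIs went from 41.2% (38.3 to 44.2) to 13.8% (11.3 to 16.5).

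Cx3cr1 was 7.77, 18.0, 20.7, 44.4 and 67.4 CPM over the same bins. It was higher at the end than at the start in 6 of 6 libraries, by 8.67-fold over all, and its thinned share went from 0.636% (0.256 to 1.31) to 6.27% (4.61 to 8.30). Suffix 6 stayed near 0 up to the middle bin (0.764 CPM there) and reached 59.6 CPM in the last. The lowest and highest bins did not overlap between libraries for either gene: Ccr2 ranged from 542 to 994 CPM at the start and from 96.5 to 349 CPM at the end, and Cx3cr1 was at most 20.1 CPM at the start and from 53.8 to 89.8 CPM at the end.

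**Figure D2:**
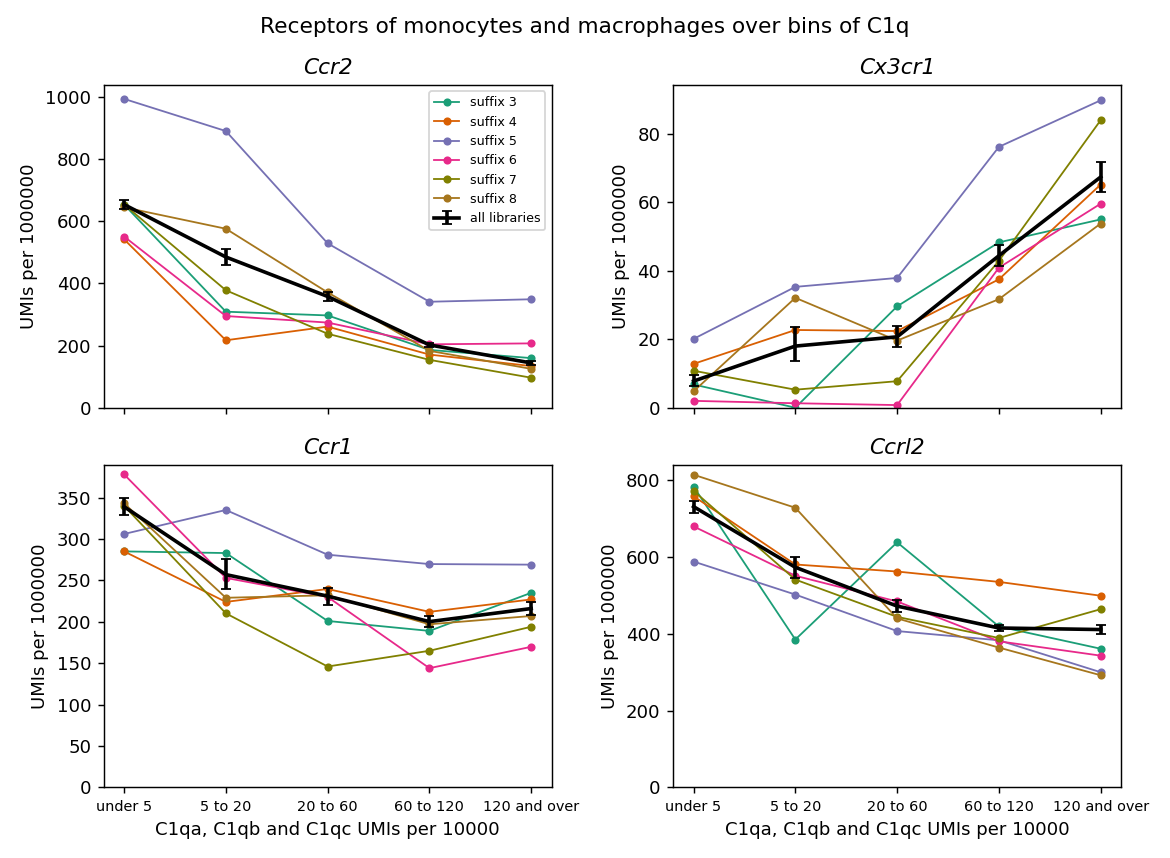
Level of Ccr2, Cx3cr1, Ccr1 and Ccrl2 (UMIs per 1000000, linear axes from 0) in 5 bins of C1q UMIs per 10000 among 3680 monocyte/macrophage barcodes; thin lines are the 6 libraries, the black line is their sum with its exact Poisson interval. Ccr2 was lower and Cx3cr1 higher in the last bin than in the first in every library, and suffix 5 lay above the others for Ccr2 throughout.

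Ccr1 and Ccrl2 differed less between the bins. Ccr1 went from 339 to 216 CPM (1.57-fold, 1.14- to 2.23-fold by library) and reached its lowest level, 200.2 CPM, in the bin before the last. Ccrl2 went from 731 to 411 CPM (1.78-fold, 1.52- to 2.79-fold), and each was lower at the end in 6 of 6 libraries. Ly6c2, a monocyte surface gene given as a check of the bins, went from 728 to 24.4 CPM, while Csf1r was 350.4 and 411 CPM. The median depth rose from 9657 to 17376 UMIs over the bins. S1pr1 (5.89 and 5.21 CPM), Ccr7, Ccr9 and Xcr1 were at most 14.4 CPM in any bin, and Ccr8 had a UMI in the bin before the last alone.

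Ccr1 was highest in early monocytes and the S100a9 gate. It was 314 CPM (308 to 320.2) in early monocytes, 302 CPM (295 to 309) in the S100a9 gate, 257 CPM in Ly6c2 monocytes and 199.8 CPM in C1q-high barcodes. The order of the first pair is not settled: early monocytes were higher in 4 of 6 libraries, but among barcodes of 1 gate alone the S100a9 gate led, with 332 CPM (311 to 355) against 294 CPM (277 to 312). By suffix from 3 to 8, the S100a9 gate gave 243, 219, 387, 415, 276 and 274 CPM, and early monocytes 278, 254, 329.9, 395, 297 and 297 CPM. Suffix 6 was highest in both. Lymphocytes held little, with 30.3 CPM in NK, 33.2 CPM in CD8 T and 93.9 CPM in Foxp3 T barcodes. B barcodes held 191 CPM, which was 108 CPM in those of the B gate alone. At 1000 UMIs the share with Ccr1 was 29.9% (27.7 to 32.1) in early monocytes, 27.0% (24.3 to 29.8) in the S100a9 gate and 18.7% (17.3 to 20.1) in C1q-high barcodes. In the B gate, taken to lack Ccr1, it was 15.9% (8.72 to 25.6), an interval that holds the C1q-high share and touches that of the S100a9 gate. Before thinning these shares were 92.8%, 94.6%, 80.1% and 57.3%.

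Ccrl2, the chemerin-binding receptor, was highest in the S100a9 gate at 774 CPM (763 to 785). Early monocytes held 630.4 CPM (622 to 639), Ly6c2 monocytes 598 CPM and C1q-high barcodes 435 CPM. Suffixes 3 to 8 gave 803, 543, 507, 968, 729.9 and 765 CPM in the S100a9 gate. In early monocytes they gave 628, 544, 472, 687, 605 and 686 CPM. The S100a9 gate was higher in 5 of 6 libraries, with suffix 4 equal to within its counting error. Without barcodes of other gates the S100a9 level was 947 CPM (911 to 984), and with at most 1 UMI of Csf1r and Adgre1 it was 1292 CPM. The thinned share was 52.9% (49.8 to 55.9) in the S100a9 gate against 8.38% (5.64 to 11.9) in NK cells, which should lack the gene, at median depths of 19067 and 6769 UMIs. Unthinned, these were 97.5% and 24.6%.

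Xcr1, Ccr7 and Ccr9 separated the 3 dendritic gates. Xcr1 was 221 CPM (204 to 239) in the 98 type 1 dendritic barcodes, which held 56.3% of its 1102 UMIs, and next highest in mature dendritic barcodes at 15.3 CPM (9.80 to 22.8). The 5 libraries with at least 10 barcodes, suffixes 4 to 8, gave 169, 306, 273, 286 and 168 CPM, all above every library value of the mature gate, whose highest was 26.6 CPM. In the 38 barcodes that passed the type 1 gate alone, Xcr1 was 402 CPM (361 to 448) and 35 of the 38 held it. Foxp3 T barcodes held no Xcr1 UMI, which allows up to 8.28 CPM, while CD8 T held 2 UMIs and NK 1. At 1000 UMIs its share was 19.4% (12.1 to 28.6) in the type 1 gate and 0.382% (0.104 to 0.974) in the S100a9 gate, and before thinning 67 of 98 and 42 of 1049 barcodes.

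Ccr7 was 1002 CPM (953 to 1052) in the 80 mature dendritic barcodes, of which 72 held it. The 4 libraries with at least 10 such barcodes gave 572 CPM in suffix 4, 1532 CPM in suffix 5, 1528 CPM in suffix 6 and 1440 CPM in suffix 8. Suffix 4 stood below the others. In barcodes that passed this gate alone the level was 1715 CPM (1609 to 1826) over all libraries and 928 CPM in suffix 4, over 11 barcodes. The next gates were Foxp3 T at 171 CPM, CD8 T at 138 CPM, B at 111 CPM and type 1 dendritic at 68.5 CPM, and their library ranges did not reach that of the mature gate. The thinned share was 55.7% (44.1 to 66.9) in mature dendritic barcodes and 0.954% (0.458 to 1.75) in the S100a9 gate, and 90.0% and 8.29% before thinning.

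Mature dendritic barcodes (73) were compared with type 1 dendritic barcodes (91) after the 7 that passed both were left out. Ccr7 was 32.9-fold higher (1131 against 34.4 CPM), in a comparison where 5.03% of 9290 genes were called higher in all 3 libraries with enough barcodes. Xcr1 was 51.4-fold lower (4.63 against 238 CPM), with 7.16% of genes called lower. Ccr2 was 1.87-fold lower (116 against 217 CPM) in 3 of 3 libraries and was not called. The 7 shared barcodes held both receptors, with 66.0 CPM of Xcr1 (39.1 to 104) and 385 CPM of Ccr7 (315 to 466).

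Of the 9 receptors, Ccr9 had the largest share of its UMIs in 1 gate. By the fold of the leading gate over the next, Xcr1 stood higher, at 14.5 against 6.66 for Ccr9. The 181 pDC barcodes held 90.8% of the 2564 Ccr9 UMIs, 176 of these barcodes had at least 1, and the level was 654 CPM (627 to 681). By suffix from 3 to 8 it was 656, 478, 825, 1373, 499 and 697 CPM. Each of these lay above 221 CPM, the highest library value of any other gate, and suffix 6 was highest over 17 barcodes. In the 52 barcodes that passed the pDC gate alone, all 52 held Ccr9, at 1864 CPM (1729 to 2006), and by suffix the level was 1731, 2419, 1672, 2442, 2547 and 1188 CPM over 4 to 15 barcodes. Mature dendritic barcodes held no Ccr9 UMI, which allows up to 1.91 CPM. The thinned share was 52.2% (44.7 to 59.7), against 0 of 334 NK barcodes, which allows up to 0.898%. Unthinned, the shares were 97.2% and 0.296%.

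The Ccr9 level of 98.1 CPM in type 1 dendritic barcodes was that of a few barcodes. The 14 that also passed the pDC gate held 272 of the 275 UMIs, at 774 CPM (685 to 871), with Xcr1 at 5.69 CPM (0.689 to 20.6). The other 84 held Ccr9 at 1.22 CPM (0.252 to 3.58) and Xcr1 at 252 CPM (233 to 273). In the Ly6c2 gate Ccr9 was 25.5 CPM, and 2.99 CPM among barcodes of that gate alone. Without the demand for Csf1r, that gate grew from 2965 to 3591 barcodes and held 2309 of the 2564 Ccr9 UMIs (36.4 CPM), whereas its Ccr2 level was 426 CPM. In CD8 T barcodes 50 of 64 Ccr9 UMIs came from 1 barcode, and the level was 0.433 CPM in barcodes of that gate alone.

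pDC were set against B cells, and no barcode passed both gates. Ccr9 was 654 CPM against 1.56 CPM (0.189 to 5.65, 2 UMIs), and Ccr2 was 2.03-fold higher (291 against 143 CPM), with 5.18% of 9945 genes called higher in all 4 libraries with enough barcodes. Ccr7 was 10.4-fold lower (10.7 against 111 CPM) and S1pr1 8.48-fold lower (6.45 against 54.7 CPM), with 1.30% of genes called lower. Both gates were mixed, as 66.9% of pDC and 52.4% of B barcodes held more than 1 UMI of Csf1r and Adgre1. In barcodes of 1 gate alone, Ccr2 was 322 CPM in pDC and 90.8 CPM in B barcodes. S1pr1 was then 2.64 CPM (1 UMI) in pDC and 108 CPM in B barcodes, and Ccr7 13.2 and 168 CPM.

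**Figure D3:**
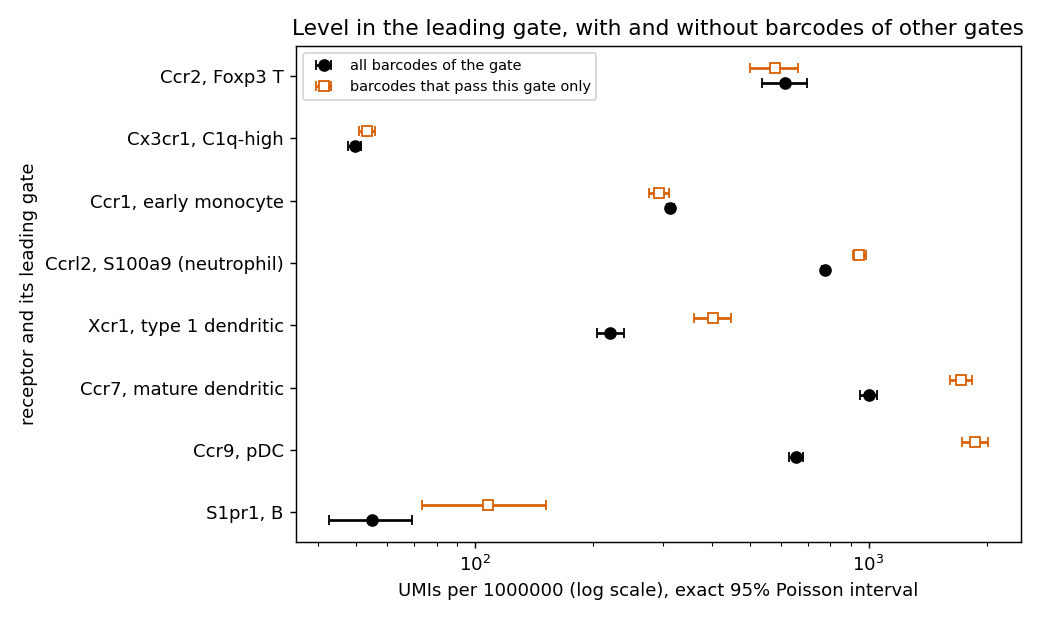
Level of 8 receptors in the gate where each was highest (UMIs per 1000000, log axis), for all barcodes of the gate (black circles) and for barcodes that passed no other gate (open squares), each with its exact 95% Poisson interval. Ccr9, Xcr1, Ccr7 and S1pr1 were 1.71 to 2.85 times higher in barcodes of 1 gate, whereas Ccr2 in Foxp3 T and Cx3cr1 in C1q-high barcodes were 0.942 and 1.07 times their level over all barcodes.

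Among lymphocytes, Ccr2 was high in Foxp3 T and NK cells and low in CD8 T cells. The comparisons of Foxp3 T and of NK with CD8 T barcodes share the CD8 T barcodes, of which suffix 5 held 1 and whose Ccr2 share could not be told apart from background. Foxp3 T barcodes had 7.90-fold more Ccr2 (613 against 77.5 CPM) and 5.34-fold more S1pr1 (35.9 against 6.73 CPM, from 13 and 17 UMIs), with 7.90% of 8633 genes called higher in the 2 libraries with enough barcodes, suffixes 4 and 6. Cx3cr1 (8.28 against 27.7 CPM, 3 UMIs of 1 barcode and 70 UMIs) and Ccr9 were called lower, as were 7.22% of genes, and Ccr9 rests on the single CD8 T barcode named above. Of the 9 receptors, 7 had enough UMIs for this comparison. Ccr7 was 171 CPM in Foxp3 T and 138 CPM in CD8 T barcodes, with 1 library higher in each. The Foxp3 T value varied widely, with 9.97, 72.3 and 308 CPM in suffixes 4, 5 and 6.

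NK cells had 6.24-fold more Ccr2 than CD8 T cells (465 against 74.6 CPM), higher in 5 of 5 libraries, with 3.55% of 9853 genes called higher. Cx3cr1 was 6.41-fold lower in NK cells (4.33 against 27.8 CPM) and Ccr7 7.84-fold lower (17.7 against 138 CPM), each in 5 of 5 libraries, with 3.69% of genes called lower. In CD8 T cells, Ccr7 was 189.7, 167, 142, 102 and 160.5 CPM in suffixes 3, 4, 6, 7 and 8, and no NK library exceeded 38.1 CPM.

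S1pr1, the egress receptor, was highest in B cells at 54.7 CPM (42.7 to 69.1) and next in Foxp3 T cells at 35.9 CPM (19.1 to 61.4), though the intervals overlapped. In the 4 libraries with at least 10 B barcodes, suffixes 5 to 8, it was 106, 79.5, 37.9 and 37.6 CPM. These lay above nearly all library values of the other gates, apart from the 72.3 CPM of suffix 5 in Foxp3 T cells, which rests on 2 UMIs. In B barcodes that passed no other gate it was 108 CPM (73.6 to 152). NK cells were lowest, with 2 UMIs over 338 barcodes (0.665 CPM, 0.0806 to 2.40). Myeloid gates held between 6.42 and 14.7 CPM. The thinned share was 12.2% (6.01 to 21.3) in B barcodes and 1.15% (0.593 to 1.99) in the S100a9 gate, and 47.6% and 14.4% before thinning. At 3000 UMIs, which 65 B barcodes reached, it was 7.69% (2.54 to 17.0) against 3.09% (2.12 to 4.34), so that the intervals overlapped. Foxp3 T barcodes were then at 12.9% (3.63 to 29.8), from 4 of 31 barcodes, so the order of B and Foxp3 T cells is not settled.

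**Figure D4:**
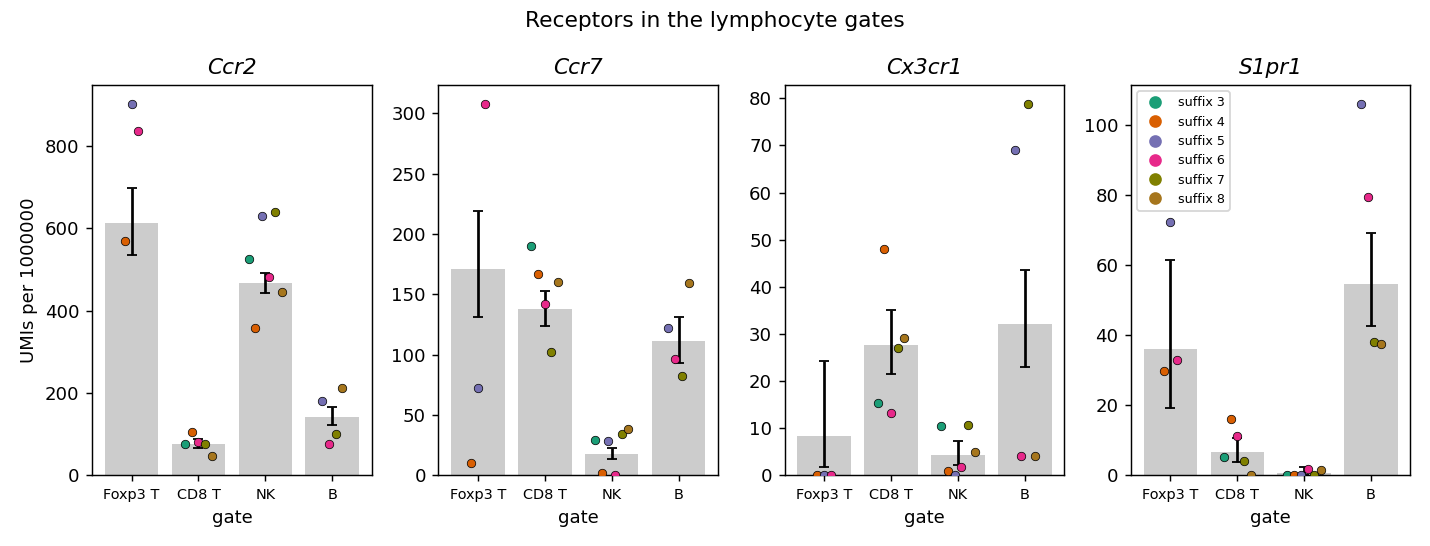
Level of Ccr2, Ccr7, Cx3cr1 and S1pr1 (UMIs per 1000000, linear axes from 0) in the Foxp3 T, CD8 T, NK and B gates; bars are sums over all libraries with exact Poisson intervals and points are libraries with at least 10 barcodes in the gate. Ccr2 was at least 358 CPM in every plotted Foxp3 T and NK library and at most 105 CPM in CD8 T cells, and S1pr1 was near 0 in NK cells.

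Ccr8, known from tumor regulatory T cells, was hardly seen. It had 36 UMIs in 34 barcodes, or 0.256 CPM (0.179 to 0.355) over all barcodes, and 15 of the 34 barcodes came from suffix 4. Of the 34, 32 held at least 2 UMIs of the Cd3 genes, 23 at least 2 of Cd8a and Cd8b1, and 6 a UMI of Foxp3. It was found in 29 of 1232 barcodes with at least 5 Cd3 UMIs (2.35%) and in 2 of 7180 without any (0.0279%). As 26 of the 34 also held more than 1 UMI of Csf1r and Adgre1, most fell outside the T cell gates. The CD8 T gate held 6 UMIs (2.37 CPM, 0.871 to 5.17), the Foxp3 T gate 1 (2.76 CPM, 0.0699 to 15.4), and NK, B and mature dendritic barcodes held none, so that a difference between the T cell gates was not detectable at this depth. After thinning to 1000 UMIs, no gate kept a barcode with Ccr8.

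The 6 libraries differed in these receptors. Ccr2 was highest in suffix 5 in 8 of the 10 gates where that library had at least 10 barcodes. In the early monocyte, Ly6c2 and C1q-high gates together, Ccr2 was 1 of 10 genes of 5356 (0.187%) that lay at least 1.5-fold above each other library in suffix 5, with Fn1, Sh2b3, Gas6, Ctdsp2, Clec10a, Atp6v0a1, Retnla, Stard8 and Rps6ka3. The count took genes with at least 20 CPM in each of these gates. This held for 4 of the receptors, and none of them was called in any other library. Ccrl2 was lowest in suffix 5 in 7 of 10 gates and highest in suffix 6 in 6 of 11, and Cx3cr1 was lowest in suffix 6 in 6 of 11. S1pr1 was highest in suffix 5 in 6 of 10 gates. Suffix 5 had the lowest median depth, 7270 UMIs, and the part of depth in these values was not tested. As the treatment of no library is known, these differences are not tied to a group.

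**Figure D5:**
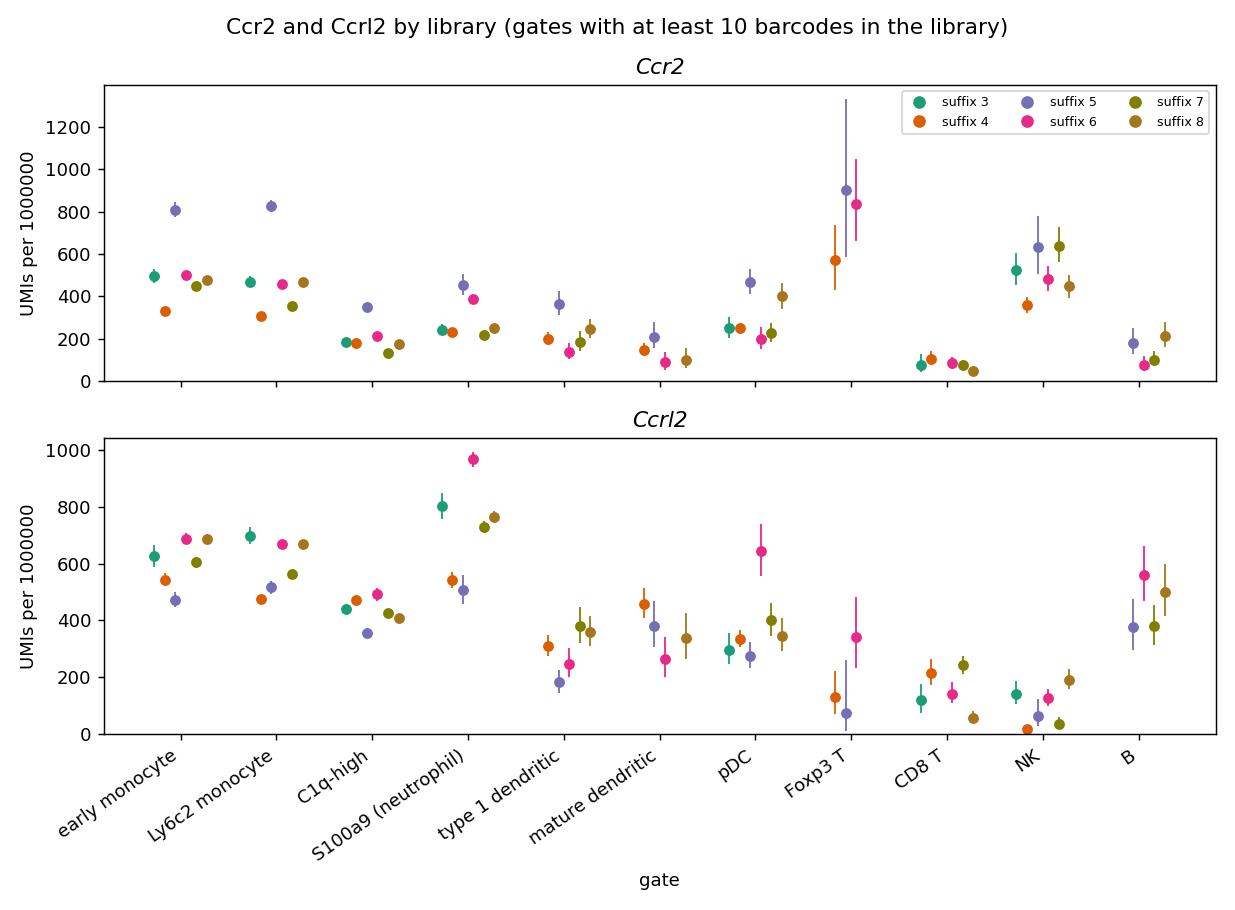
Level of Ccr2 and Ccrl2 (UMIs per 1000000, linear axes from 0) in each gate for each library with at least 10 barcodes in it; bars are exact 95% Poisson intervals. Suffix 5 was the highest for Ccr2 in 8 of 10 gates and the lowest for Ccrl2 in 7 of 10.

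Other genes of these pathways were read from fixed lists. Of 13 other chemokine and sphingosine-1-phosphate receptors, 6 reached 20 CPM in a gate. Ccr3 (33.1 CPM, 12 UMIs), Ccr4 (30.4 CPM, 11 UMIs) and S1pr4 (49.7 CPM, 18 UMIs) were highest in Foxp3 T barcodes. In barcodes of 1 gate alone, S1pr4 was higher in pDC (60.7 CPM) than in Foxp3 T barcodes (51.0 CPM). Ccr6 was highest in B cells (23.5 CPM) and 20.9-fold lower in pDC, and S1pr2 was highest in the S100a9 gate (23.9 CPM). In the C1q-high gate, 2 of the 8 other receptors with enough UMIs were called lower than in early monocytes, Ackr3 and S1pr3, and none higher, where 2.91% of all genes were called lower and 3.68% higher.

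Of 16 ligands, 15 were in the matrix and 12 reached 20 CPM. The CCR2 ligands Ccl2 (2959 CPM), Ccl7 (3155 CPM) and Ccl12 (1436 CPM) were each highest in the C1q-high gate. The CCR1 ligands Ccl6 (1817 CPM) and Ccl9 (619.8 CPM) led in early monocytes, and Ccl3 (1178 CPM) in the S100a9 gate. Xcl1, the XCR1 ligand, was highest in NK cells at 257 CPM, with library values from 150.4 to 652 CPM. Ccl8, a CCR8 ligand in the mouse, was highest in the S100a9 gate at 4453 CPM and was 3666 CPM in C1q-high barcodes. It was called higher in NK than in CD8 T cells (2.18-fold, 375 against 172 CPM, in 5 of 5 libraries), as were 3.55% of all genes. The monocyte/macrophage markers without gating genes were also higher in NK (563 CPM) than in CD8 T barcodes (425 CPM). The part of macrophage transcripts in the Ccl8 call was not tested. Ccl1, also a CCR8 ligand, was 177 CPM in Foxp3 T barcodes from 64 UMIs, but was at 0 in each of the 3 libraries with at least 10 barcodes. Ccl19, a CCR7 ligand, had at most 1 UMI in any gate. None of the 13 ligands with enough UMIs was called between C1q-high and early monocytes, and 1 of 13, Ccl5 (3660 CPM in mature dendritic barcodes), was called higher in mature than in type 1 dendritic barcodes, as were 5.03% of all genes. In Foxp3 T against CD8 T barcodes, compared in 2 libraries, Ccl4 and Ccl5 of 12 ligands with enough UMIs were called lower, as were 7.22% of all genes. Among 5 genes of signaling and retention with enough UMIs, Cd69 and Klf2 were called higher, as were 7.90% of all genes. Cd69, which holds S1PR1 inside the cell, was 243 CPM in Foxp3 T barcodes.

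The genes whose level was most like that of a receptor were sought over 43 points, each a gate in a library with at least 20 barcodes, from 10 gates and 7750 genes. Points of 1 library share its depth and gates share barcodes, so these correlations are descriptions. No library had 20 Foxp3 T barcodes, the leading gate of Ccr2. The leading gates of Ccr7 and S1pr1 gave 1 point each, suffix 4 for mature dendritic and suffix 5 for B barcodes. That of Xcr1, the type 1 dendritic gate, gave points in suffixes 4 and 5 alone, with 28 and 20 barcodes. Ccr9 was most like Klk1 (Pearson r 0.98), Klk1b27 and Gm21762, all highest in pDC. Ccr1 was most like Tpd52 (0.97), Mcl1 and Ms4a6d, and Xcr1 most like Sept3 (0.96), Itgae and Gpr141b. Itgae was highest in Foxp3 T barcodes (160.1 CPM), which gave no point. Ccrl2 followed Slc15a3 (0.94), Ptgs2 and Fcgr1, genes highest in early monocytes. For Ccr2 (Gas7, 0.82), Cx3cr1 (Kcnn4, 0.78), Ccr7 (Sinhcaf, 0.78) and S1pr1 (Trib2, 0.75) the likeness was lower. Ccr8 was too sparse for this measure.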

How the data were processed

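The authors deposited a single table of raw UMI counts, 20649 genes by 9235 barcodes, without normalization. The submitters' processing notes name Cell Ranger 1.2, Seurat 3.1.5, R 4.0.1 and mm10; the filter on barcodes is not given in the sources used here, and the highest mitochondrial share of a barcode was 9.99%. All columns were used and no doublet caller was run. No barcode could be assigned to a tumor, so the planned comparison of treatments was not made and the table counts as 1 pooled sample.

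The 9 genes, the gates and the gene lists were chosen with earlier results of these data known. The gates follow a given rule whose missing UMI minimums were filled in, including Csf1r in the Ly6c2 gate. UMIs were summed per gate and library and divided by the sum of all UMIs (CPM). Levels have exact Poisson intervals and shares of barcodes with a UMI exact Clopper-Pearson intervals (95%), which cover counting error only. Where a gate held no UMI, the limit is that of 3 UMIs. Shares were read after random thinning of barcodes to 1000 UMIs, for which 77 barcodes were too shallow. Library values are given for at least 10 barcodes, except for Ccr9 in barcodes of the pDC gate alone.

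Pairs of gates were compared over genes with at least 20 UMIs in both together, and a gene was called at 2-fold with the same direction in every library that held 10 barcodes of each. The calling step was tested on simulated counts. Likeness is the Pearson correlation of log2(CPM + 10). Named genes are the 9, listed pathway genes with at least 20 CPM in a gate, the 3 most alike of each member and the genes called in suffix 5. A few genes that this rule names are not reported here. Levels of different receptors were not ranked against each other, since counts come from the 3′ end alone. Python 3.11.15, numpy 2.4.6, scipy 1.17.1, pandas 2.3.3 and matplotlib 3.10.9 were used. Alternatives were other gate rules, barcodes of 1 gate alone, other summaries and depths, another fold and each library left out.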

Additional observations from a re-analysis of the deposited data

Results flagged for a closer look

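Ccr7 in the mature dendritic gate was 572 CPM in suffix 4, against 1440 to 1532 CPM in the other 3 libraries with at least 10 such barcodes. The gap to the nearest library was 0.904 of the range, above Dixon's 95% limit for 4 values, which chance alone exceeds in about 1 of 20 groups. Of the 26 barcodes of suffix 4 in this gate, 11 passed no other gate, and their level was 928 CPM. Without suffix 4 the level over all libraries was 1328 CPM. The 7 receptors whose leading gate had at least 4 libraries were examined in this way, as was Ccr8 over all barcodes, and the others gave no such library.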

How the results depend on the processing

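No paired analysis was possible because the replicate numbers belong to tumors, to which no barcode could be tied; gates were compared within each library instead. Of 96 values under other settings, 56 stayed within their limit and 40 did not. For levels the limit was the spread between libraries, and for shares the exact interval of the main share. For counts of called genes it was 1.5 times the count, and for the C1q bins a range from the share intervals. A reversed direction was looked for in the C1q bins alone, with 0 found. A change of leading gate was not counted as a move. With each barcode in 1 gate only, or with the limit on Csf1r and Adgre1 in every gate outside monocytes, the level in CPM became 947 or 1292 for Ccrl2, 402 or 400.5 for Xcr1, 1715 or 2021 for Ccr7, 1864 or 1809 for Ccr9 and 108 or 146 for S1pr1, each with its leading gate kept. Ccr1 was led by the S100a9 gate under both, and also when 1 UMI of Vcan or Hp was enough. A mean over barcodes gave 894 for Ccr2, 368 for Ccr1, 998 for Ccr9 and 152 for S1pr1, and a median over libraries 836 for Ccr2 and 1484 for Ccr7. At 3000 UMIs and unthinned, shares were 77.4% and 78.2% for Ccr2 in Foxp3 T, 10.4% and 29.6% for Cx3cr1 and 59.4% and 92.8% for Ccr1. They were 79.7% and 97.5% for Ccrl2, 38.5% and 68.4% for Xcr1, 79.7% and 90.0% for Ccr7, and 72.3% and 97.2% for Ccr9. More UMIs were read in these, but barcodes under 3000 UMIs were left out of the first value. In the Foxp3 T gate 24 were left out and 31 remained. For S1pr1 the share was 7.69% at 3000 UMIs, below the 12.2% at 1000 UMIs, and 47.6% unthinned. The last over the first C1q bin of Ccr2 was 0.220 in CPM and 0.335 in shares. Called genes at 4-fold were 177, 312, 340, 254 and 250 for the comparisons of C1q-high, mature dendritic, Foxp3 T, NK and pDC, against 900, 1132, 1305, 714 and 644 at 2-fold. Without the demand on libraries, 1517 (C1q-high), 1160 (NK) and 1056 (pDC) were called, by construction more. Where no construction gives it, the cause was not tested. Leaving out each library moved none of the levels, shares and counts of called genes beyond its limit. At 1000 UMIs no gate kept a barcode with Ccr8, and the Cx3cr1 shares of C1q-high barcodes and early monocytes lay within the B interval. At 3000 UMIs these Cx3cr1 shares were 10.4% and 4.15%, still within the B interval of 2.54 to 17.0%. The part of depth in this was not tested.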
